A study of Macaca mulatta with 5 samples.

Results

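This account concerns the MeDIP peaks of the unplaced scaffolds of the rhesus monkey (Macaca mulatta) genome, that is, every peak whose sequence name starts with chrUn. Of 132366 peaks in the deposited lists of 2 libraries, 6389 were on such scaffolds: 2758 of 48838 in embryonic stem cells, labelled rESC, and 3631 of 83528 in cells labelled R_NSCP1. The title of the series places the cells in a study of neural fate determination, but the labels give the cell type of both libraries as embryonic stem cell, do not spell out R_NSCP1, and give no strain, age or treatment. Each cell type had 1 MeDIP library, and an input mixed from both was not analysed here. No comparison between cell types therefore has a replicate check, and no test between them was made. Intervals cover counting error only. The peak lists carry no gene names, so the cell type labels could not be checked against marker genes.

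Unplaced scaffolds are assembled pieces of genome sequence that could not be given a place on a chromosome. They often hold segmental duplications and other repeats, because such sequence is hard to order, and many are short and end where the assembly broke off. In vertebrates most DNA methylation is on cytosines of CpG pairs, and repeats are among the sequence that is usually methylated. In MeDIP an antibody pulls down methylated DNA fragments, which are then sequenced. Where an assembly holds fewer copies of a repeat than the genome does, reads of all copies can stack on the copies it has. Peaks were called without the input, so copy number and methylation cannot be told apart at any single peak.

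The rESC library held 8690541 tags and the R_NSCP1 library 9071243 tags after filtering. A peak's pileup is the number of fragments stacked at its summit. Pileups were scaled to 1000000 tags, so that 1 fragment was worth a scaled pileup of 0.115 in rESC and 0.110 in R_NSCP1. The fragment length that each tag was extended to was 249 bp in rESC and 236 bp in R_NSCP1, which was also the length of the shortest peak in each list.

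Scaffolds took 5.65% of the rESC list (95% exact interval 5.44% to 5.86%) and 4.35% of the R_NSCP1 list (4.21% to 4.49%). R_NSCP1 had 1.32 times as many scaffold peaks as rESC (1.25 to 1.38). On chromosomes 1 to 20 the ratio was 1.74 (1.72 to 1.76), with 44266 and 77158 peaks, so the interval on scaffolds lay below that on the chromosomes. The intervals also stayed apart at −log10 q thresholds of 5, 10 and 20. At a −log10 q of at least 10 there were 1227 and 1742 scaffold peaks, a ratio of 1.42 (1.32 to 1.53) against 2.21 (2.16 to 2.26) on the chromosomes. At 50 or more there were 133 and 174, a ratio of 1.31 (1.04 to 1.65), and this interval overlapped the chromosomes' 1.27 to 1.66. The scaffold peaks covered 1040 kb in rESC and 1303 kb in R_NSCP1.

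The size of the scaffold surplus depended on how the unequal fragment lengths were handled. A total of 801 R_NSCP1 scaffold peaks, or 22.1%, were shorter than 249 bp, the shortest length listed in rESC, as were 30.6% of R_NSCP1 peaks on chromosomes 1 to 20. Leaving these out left 2758 and 2830 scaffold peaks and a ratio of 1.03 (0.97 to 1.08), while the chromosomes kept a ratio of 1.21. This cutoff could remove no rESC peak, so the ratio could only fall. Asking instead for peaks at least 13 bp longer than the library's own fragment length, 13 bp being the gap between the fragment lengths, left 2137 and 2830 peaks and a ratio of 1.32 (1.25 to 1.40), against 1.82 on the chromosomes. Both cutoffs were chosen after the data were seen.

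Peaks were spread over many scaffolds. A peak was present on 1713 scaffolds in rESC, on 2030 in R_NSCP1 and on 2284 in either. A single peak was all that 1340 scaffolds held in rESC and 1570 in R_NSCP1, which came to 48.6% and 43.2% of the scaffold peaks. At least 10 peaks stood on 21 scaffolds in rESC and 40 in R_NSCP1. The 10 fullest scaffolds of each library held 7.76% of the rESC and 8.15% of the R_NSCP1 scaffold peaks.

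The scaffold with the most peaks over both libraries, chrUn_JH290567, had 25 in rESC and 49 in R_NSCP1, a ratio of 1.96 (1.19 to 3.31). On chrUn_JH290454, with 12 and 28 peaks, the ratio was 2.33 (1.15 to 5.04). Both intervals included the 1.32 of all scaffold peaks, as did those of the other 6 of the 8 scaffolds that were among the fullest 5 of a library. chrUn_JH290552 had 34 peaks in rESC and 38 in R_NSCP1. chrUn_JH290312 had 32 and 31, and chrUn_JH290508 had 18 and 29. The counts were 18 and 25 on chrUn_JH290429, 19 and 20 on chrUn_JH290367, and 18 and 16 on chrUn_JH290355.

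These scaffolds also differed in how closely their peaks were set and in whether the cell types used the same places. Scaffold lengths were not used here, so the end of the last peak in either list, called the observed span, stood in for them and is the least a scaffold can measure. chrUn_JH290567 had 8.83 R_NSCP1 peaks per 100 kb of its observed span of 555 kb, and 16 of its 49 R_NSCP1 peaks overlapped an rESC peak. chrUn_JH290312 had 7.42 per 100 kb over 418 kb, and 27 of its 31 R_NSCP1 peaks overlapped an rESC peak. chrUn_JH290429, with the longest observed span at 749 kb, had 3.34 per 100 kb. Over the 123 scaffolds with an observed span of at least 100 kb the density was 2.34 per 100 kb in rESC and 3.45 in R_NSCP1. Chromosomes 1 to 20, measured the same way, had 1.62 and 2.82, and single chromosomes reached 2.41 and 4.36. The scaffold densities are upper values, because the span is a minimum and scaffolds without a peak were left out. They are therefore not on an equal footing with those of the chromosomes.

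**Figure D1:**
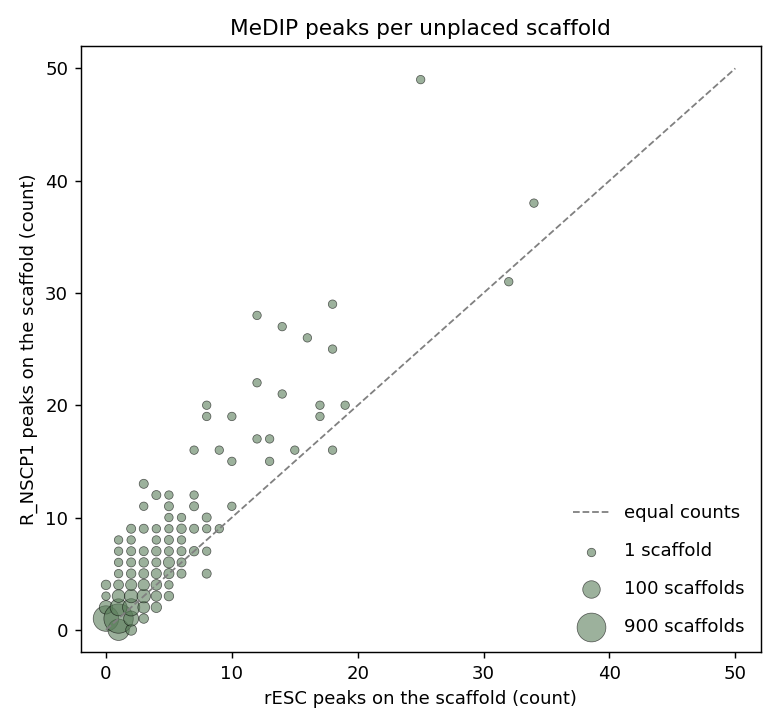
Number of R_NSCP1 MeDIP peaks (vertical axis, count) against rESC peaks (horizontal axis, count) on each unplaced scaffold. Each circle is a pair of counts, its area grows with the number of scaffolds at that pair, and the dashed line marks equal counts; 2029 of the 2284 scaffolds have at most 2 peaks in each library, and chrUn_JH290567, at 25 and 49, lies farthest above the line.

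Of the 2284 scaffolds, 1459 (63.9%, 61.9% to 65.9%) had peaks in both libraries. On 979 of them each library had exactly 1 peak. R_NSCP1 had more peaks on 254 of the 1459, rESC on 87, and the counts were equal on 1118. On 50 scaffolds both libraries had peaks but none overlapped. On the 1459 scaffolds rESC had 2496 peaks and R_NSCP1 3022, which is 1.21 times as many (1.15 to 1.28).

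Peaks in rESC only were present on 254 scaffolds and peaks in R_NSCP1 only on 571. Nearly all of these scaffolds held a single peak: 246 of the 254 and 540 of the 571. The fullest had 2 peaks in rESC, on 8 scaffolds. In R_NSCP1 chrUn_JH290737, chrUn_JH290819 and chrUn_JH290873 had 4 peaks each, with pileups of 7 to 15 fragments, and chrUn_JH290334 had 3. The peaks on scaffolds of 1 library were weak. Their median pileup was 9 fragments in rESC and 10 in R_NSCP1, or 1.036 and 1.102 when scaled to 1000000 tags, near the 1.15 and 1.21 of chromosome peaks without a partner. Scaffold peaks that overlapped a peak of the other library had medians of 1.84 and 2.21. The scaffolds of 1 library held 262 of the 636 unshared rESC scaffold peaks (41.2%) and 609 of the 1501 unshared R_NSCP1 scaffold peaks (40.6%).

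Scaffold peaks were shared between the libraries more often than chromosome peaks. In rESC, 2122 of 2758 scaffold peaks shared at least 1 bp with an R_NSCP1 peak, or 76.9% (75.3% to 78.5%), against 67.5% (67.1% to 67.9%) on chromosomes 1 to 20 and 67.8% over the whole list. In R_NSCP1 the share was 2130 of 3631, or 58.7% (57.0% to 60.3%), against 38.7% (38.4% to 39.1%) on the chromosomes and 39.7% over the whole list. The shared peaks were nearly equal in number in the 2 libraries, also on the chromosomes (29881 and 29871). The R_NSCP1 shares are therefore tied to the ratios of peak counts given above and are not a separate result. The gap was also present where the R_NSCP1 list was cut to its 48838 strongest peaks, the number of all rESC peaks. Then 64.9% of rESC and 71.4% of R_NSCP1 scaffold peaks were shared, against 53.5% and 52.3% on the chromosomes. The rESC list was left whole, so the rESC shares could only fall. On a scaffold little longer than a peak, however, peaks of the 2 libraries can hardly miss each other. An observed span under 1 kb was found for 1293 of the 2284 scaffolds, with 32.6% of rESC and 31.2% of R_NSCP1 scaffold peaks. At an observed span of at least 100 kb the shares were 70.4% and 47.6%. The part of scaffold length in the gap was not tested.

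Peak strength moved with this gap. A −log10 q of at least 20 was reached by 518 rESC and 719 R_NSCP1 scaffold peaks, and the class of 50 or more held 4.82% and 4.79% of scaffold peaks but 0.863% and 0.721% of chromosome peaks. Within classes of strength the rESC shares on scaffolds and chromosomes were close: 67.5% (64.8% to 70.2%) and 64.4% at a −log10 q of 5 to 10, and 91.5% (89.2% to 93.5%) and 93.0% at 10 to 20. In R_NSCP1 the weaker classes stayed apart. At 5 to 10, 38.8% (36.3% to 41.3%) of scaffold and 27.7% (27.3% to 28.1%) of chromosome peaks were shared, and at 10 to 20, 73.0% (70.2% to 75.7%) and 63.2% (62.5% to 63.9%). The classes from 20 to 50 were level, at 97.1% and 97.0%.

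**Figure D2:**
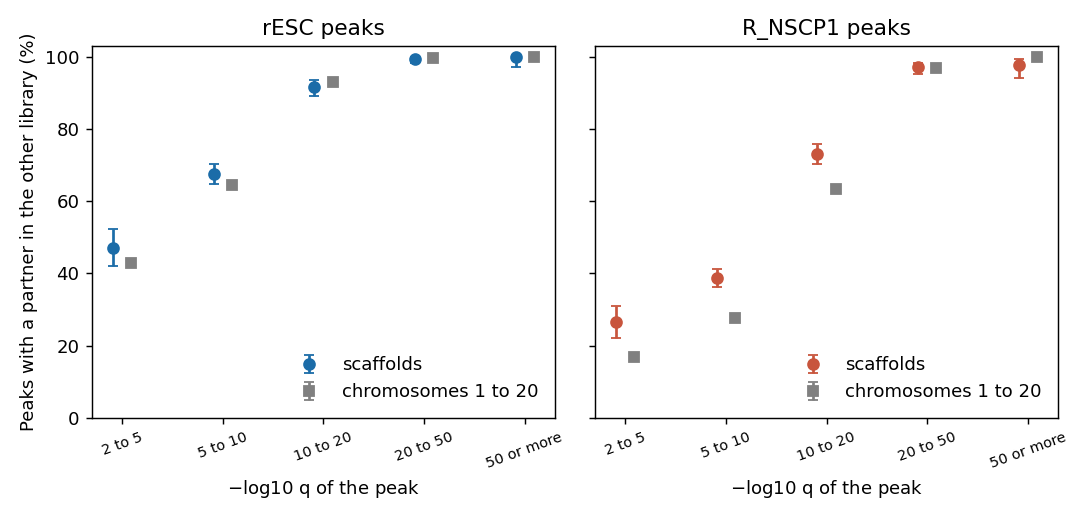
Share of peaks that overlap a peak of the other library by at least 1 bp (vertical axis, %) by class of −log10 q (horizontal axis), for rESC peaks (left) and R_NSCP1 peaks (right). Circles are scaffolds, squares chromosomes 1 to 20, and bars 95% exact intervals; scaffold and chromosome shares lie together in rESC, while in R_NSCP1 scaffolds lie higher up to a −log10 q of 20, with 73.0% against 63.2% at 10 to 20.

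Strong peaks of a single library were few, and on scaffolds they lay near the scaffold start. At a −log10 q of at least 20, 2 rESC and 20 R_NSCP1 scaffold peaks had no partner, and 19 of the 20 started within the first 300 bases, 10 of them at base 1. Of the 699 R_NSCP1 scaffold peaks of that strength with a partner, 296 started within the first 300 bases (42.4%, 38.7% to 46.1%), and of all 3631 it was 1059 (29.2%). On a short scaffold, however, any peak starts near the scaffold start. Of the 3631, 1092 were on scaffolds with an observed span of at least 100 kb, and 19 of the 20 were on scaffolds without an rESC peak. The part of scaffold length in these shares was not tested. At a −log10 q of 50 or more, 4 of 174 R_NSCP1 scaffold peaks had no partner, whereas all 556 chromosome peaks of that class had a partner. Ranked by the authors' fold enrichment, which sets the pileup against the local background, the first of the unshared R_NSCP1 scaffold peaks was on chrUn_JH295485 from 291 to 576, with a fold of 24.97 and a pileup of 77 fragments. Peaks on chrUn_JH313413 from 180 to 425 and chrUn_JH293966 from 7 to 503 followed, both at 22.2, with 49 and 71 fragments. Those on chrUn_JH304260 from 5 to 250 and chrUn_JH303681 from 5 to 243 had 37 and 36. Each was the sole peak of its scaffold, and rESC had no peak on any of these 5 scaffolds. The lowest pileup with which rESC listed a scaffold peak at its lowest background was 6 fragments, but no listed rESC peak was shorter than 249 bp. The rESC pileup and background at these 5 peaks are not known.

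The 5 unshared rESC scaffold peaks with the highest fold enrichment were lower. The highest had 25 fragments, on chrUn_JH311094 from 120 to 368 (fold 15.1), and the next 23, on chrUn_JH308249 from 1 to 258 (13.9). Peaks of 19 fragments on chrUn_JH309320 from 1 to 332 and chrUn_JH296295 from 1 to 293 and of 18 fragments on chrUn_JH307790 from 39 to 304 completed the 5. R_NSCP1 had no peak on these 5 scaffolds.

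Length moved with the strong unshared R_NSCP1 peaks. Of the 20 on scaffolds, 7 (35.0%, 15.4% to 59.2%) were shorter than 249 bp, against 6 of 699 (0.858%) of those with a partner and 0 of 124 unshared peaks of that strength on the chromosomes (which allows up to 2.93%). Of the 5 named above, the peaks of chrUn_JH313413, chrUn_JH304260 and chrUn_JH303681 measured 246, 246 and 239 bp. The part of the minimum length in these differences was not tested. At 253 bp, a peak on chrUn_JH290732 from 1 to 253 had the highest pileup of the 20, 107 fragments, for which it was chosen, and rESC had 2 other peaks on that scaffold.

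Where a scaffold peak was shared, its pileup was close in the 2 cell types. Of the scaffold peaks, 2055 formed pairs in which each peak overlapped only the other. The median ratio of scaled pileup, R_NSCP1 over rESC, was 1.06 (quartiles 0.89 and 1.31), and on the chromosomes it was 1.12 (0.94 and 1.35) over 28899 pairs. At least 1.5-fold higher in R_NSCP1 were 298 scaffold pairs, or 14.5% (13.01% to 16.1%), against 14.9% of all pairs. At least 1.5-fold higher in rESC were 83, or 4.04% (3.23% to 4.98%), against 3.99% of all pairs. Both shares were at the background of the whole lists. At least 2-fold higher were 60 of the 2055 scaffold pairs in R_NSCP1 and 8 in rESC, against 764 and 126 of all 32028 pairs (2.39% and 0.393%). Among the 273 scaffold pairs with a pileup of at least 50 fragments in either library, 17 were 1.5-fold higher in R_NSCP1 and 2 in rESC, and the median ratio was 1.04. No share over all pairs of that pileup was set beside these counts, so they are not read against a background.

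The pairs farthest apart, chosen after their values were seen, show the range. On chrUn_JH307966 from 45 to 307 the pileup was 9 fragments in rESC and 30 in R_NSCP1, a ratio of scaled pileup of 3.19 (1.48 to 7.65). In the other direction a peak on chrUn_JH291502 from 15878 to 16209 had 66 fragments in rESC and 20 in R_NSCP1, a ratio of 0.29 (0.17 to 0.48). Being the extremes of 2055 pairs, they are described and not tested.

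Scaffold peaks had a somewhat higher median pileup than chromosome peaks and a much heavier upper tail. The median scaled pileup was 1.61 in rESC and 1.65 in R_NSCP1, against 1.496 and 1.433 on chromosomes 1 to 20, which are steps of 1 and 2 fragments (14 against 13, and 15 against 13). The 90th percentile was 5.29 against 2.99 in rESC and 4.74 against 2.87 in R_NSCP1, and the 99th percentile 17.98 against 8.75 and 17.6 against 6.95. Scaffold peaks were also longer. Their median length was 314 bp against 286 bp in rESC and 305 bp against 276 bp in R_NSCP1. At least 1 kb was reached by 29 (1.05%) and 30 (0.826%) scaffold peaks, against 0.513% and 0.363% on the chromosomes. Peaks of exactly the fragment length, the shortest possible, made up 12.5% of rESC scaffold peaks against 22.7% on the chromosomes, and 11.9% against 19.6% in R_NSCP1.

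**Figure D3:**
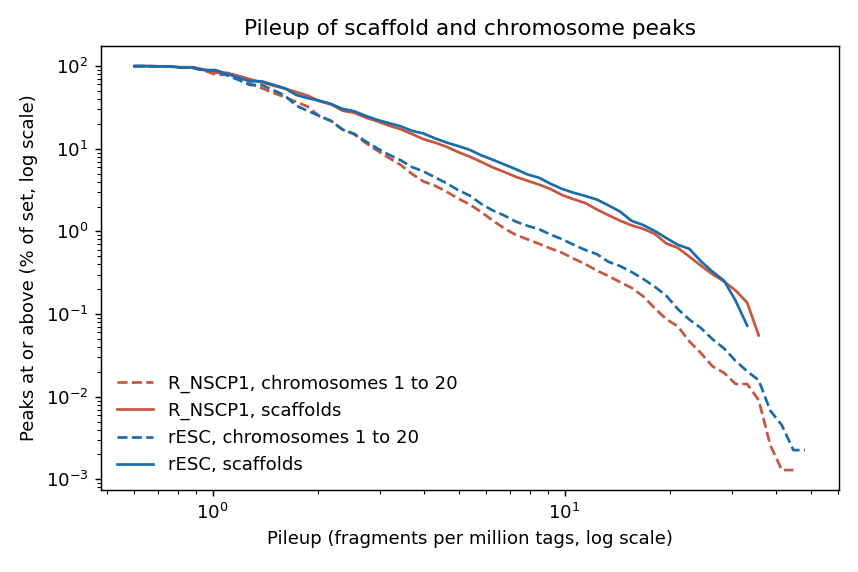
Share of peaks at or above a pileup (vertical axis, % of the set, log scale) against pileup (horizontal axis, fragments per 1000000 tags, log scale), in rESC (blue) and R_NSCP1 (red), on scaffolds (solid) and chromosomes 1 to 20 (dashed). The curves part above the median: 10% of scaffold peaks reach 5.29 in rESC and 4.74 in R_NSCP1, where 10% of chromosome peaks reach 2.99 and 2.87, but the highest values of all lie on the chromosomes.

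The longest scaffold peaks were shared. In rESC a peak on chrUn_JH293335 from 704 to 2880 measured 2177 bp, and the R_NSCP1 peak there ran from 696 to 2088. On chrUn_JH290312 peaks of 2089 bp in rESC (195998 to 198086) and 2069 bp in R_NSCP1 (196016 to 198084) nearly coincided, with pileups of 127 and 124 fragments. On chrUn_JH292088 peaks of 1776 and 1850 bp did so, from 4358 to 6133 and from 4297 to 6146. The remaining peaks of the 5 longest were on chrUn_JH293768 and chrUn_JH290355 in rESC and on chrUn_JH290345 and chrUn_JH292003 in R_NSCP1, and all of the 5 longest of each library had a partner.

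Very high pileups were more frequent on scaffolds, though a single scaffold held many of them. A very high pileup was taken as one above the level that 0.1% of the peaks of chromosomes 1 to 20 exceed, a scaled pileup of 21.7 in rESC and 18.7 in R_NSCP1. It was passed by 18 rESC scaffold peaks, or 0.653% (0.387% to 1.03%), on 8 scaffolds, and by 30 R_NSCP1 scaffold peaks, or 0.826% (0.558% to 1.18%), on 16 scaffolds, where 0.133% and 0.129% of the whole lists passed it. The 8 rESC scaffolds were all among the 16 of R_NSCP1, and all 48 peaks had a partner. No scaffold peak was above the highest chromosome peak, at a scaled 51.3 in rESC and 47.6 in R_NSCP1.

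A single scaffold, chrUn_JH290355, held 11 of the 18 and 14 of the 30. Without it, 7 of the remaining rESC scaffold peaks (0.256%, 0.103% to 0.526%) and 16 of the remaining R_NSCP1 scaffold peaks (0.443%, 0.253% to 0.718%) passed the threshold. The rESC interval then included the 0.133% of the whole list, while the R_NSCP1 interval lay above its 0.129%. On that scaffold 18 rESC peaks, between 17857 and 58650, had pileups of 79 to 294 fragments with a median of 210.5. The 16 R_NSCP1 peaks, between 17887 and 58655, had 129 to 338 fragments with a median of 217.5. The medians were 24.2 and 24.0 when divided by the tags of the libraries.

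The local background of chrUn_JH290355 was high throughout. The background can be read back from the pileup and the fold enrichment of the authors' lists, and is the number of fragments that the peak caller took as typical of the surrounding 10000 bp. At the peaks of this scaffold it was 34.5 to 96.4 fragments in rESC (median 63.1) and 44.4 to 93.7 in R_NSCP1 (median 65.2), whereas the median scaffold peak had 0.921 and 0.920. Fold enrichments were accordingly low, from 1.95 to 5.79 in rESC and from 2.13 to 5.61 in R_NSCP1. No other scaffold had a peak with a background of at least 40, and on chromosomes 1 to 20 there were 53 such peaks in rESC and 55 in R_NSCP1. The input, which would measure copy number, was not analysed here, and the part of copy number in these values was not tested.

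The 15 pairs of chrUn_JH290355 had a median ratio of 1.04, R_NSCP1 over rESC, from 0.80 to 1.25, and 11 were above 1. The highest R_NSCP1 pileup of any scaffold, 338 fragments from 30996 to 31820, faced 268 in rESC, a ratio of 1.21 (1.03 to 1.42). The peaks of 322 fragments in R_NSCP1 (55497 to 55936) and 294 in rESC (55468 to 55935) had a ratio of 1.05 (0.89 to 1.23). If 1 tag is kept per position and strand, as the header value of at most 1 tag per position implies, no more than 498 fragments can stack in rESC and 472 in R_NSCP1. The highest scaffold pileups reached 59.2% and 71.6% of these ceilings.

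**Figure D4:**
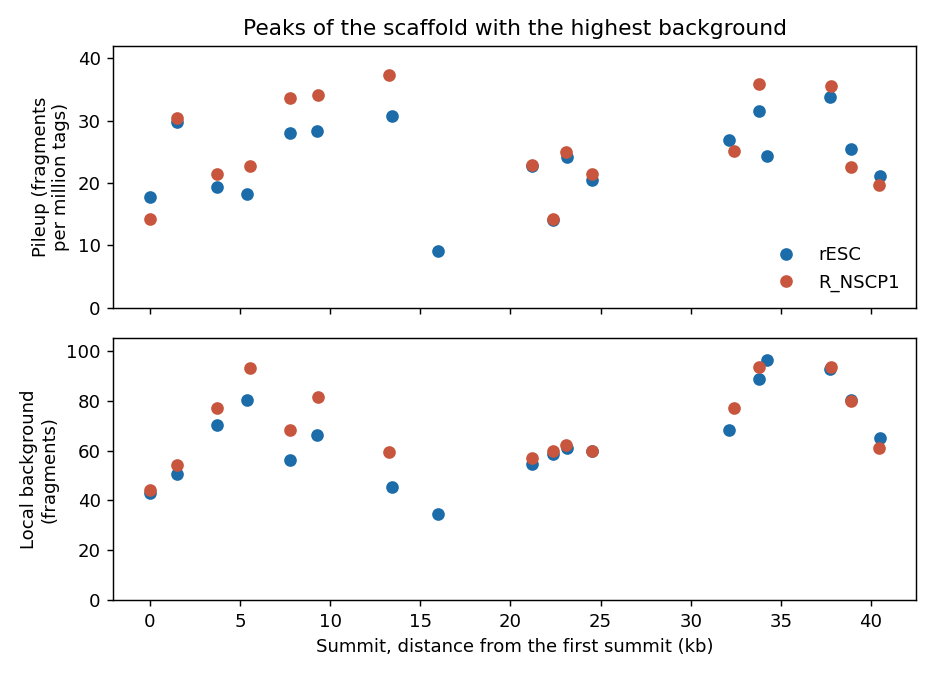
Pileup (upper panel, fragments per 1000000 tags) and local background (lower panel, fragments) of each peak of chrUn_JH290355 against the distance of its summit from the first summit (horizontal axis, kb), in rESC (blue, 18 peaks) and R_NSCP1 (red, 16 peaks). The points of the libraries follow each other, with backgrounds of 34.5 to 96.4 in rESC and 44.4 to 93.7 in R_NSCP1.

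Other very high pileups stood out sharply from their surroundings. The highest rESC pileup of any scaffold peak, 295 fragments on chrUn_JH292874 from 7034 to 7926, had a background of 19.7 and a fold enrichment of 14.3, and R_NSCP1 had 293 fragments there. On chrUn_JH290656 from 119960 to 120645 the pileups were 257 and 292, with backgrounds of 11.3 and 12.8 and fold enrichments of 21.1 and 21.2. This peak had the highest −log10 q of the scaffolds in both libraries, 238.7 and 271.1. On chrUn_JH296610 a peak ending at base 729 had 209 and 268 fragments, and on chrUn_JH290694 a peak from 17008 to 17802 had 223 and 242. The last 3 scaffolds lay outside the naming rule and were chosen after their values were seen.

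Very high fold enrichments were also more frequent on scaffolds. The median fold enrichment was 6.764 in rESC and 7.003 in R_NSCP1, against 5.971 and 6.20 on chromosomes 1 to 20, and the 99th percentile was 21.7 and 22.2 against 14.04 and 14.07. The highest fold enrichments of both whole lists were on scaffolds: 29.1 in rESC on chrUn_JH306204 from 7 to 277 and 30.4 in R_NSCP1 on the same scaffold from 1 to 277, which was chosen after its values were seen. Above the fold enrichment that 0.1% of chromosome peaks exceed, 20.8 and 20.6, were 41 rESC (1.49%, 1.07% to 2.01%) and 67 R_NSCP1 scaffold peaks (1.85%, 1.43% to 2.34%). Of these, 27 (65.85%) and 42 (62.69%) were on scaffolds with an observed span under 1 kb, which held 32.6% and 31.2% of all scaffold peaks. chrUn_JH290355, the scaffold with the most very high pileups, had none of them.

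The background fell to its lowest value on short scaffolds. The lowest value, the number of fragments an even spread of the tags over the effective genome size gives, was 0.721 in rESC and 0.714 in R_NSCP1. Within 1% of it were 41.1% of rESC and 39.7% of R_NSCP1 scaffold peaks, against 24.6% and 25.1% on the chromosomes and 26.2% and 26.1% over the whole lists. On scaffolds with an observed span under 1 kb the shares were 74.97% and 75.55%, and on those of at least 100 kb they were 24.1% and 20.7%. The median fold enrichment fell with span, from 8.01 to 6.12 in rESC and from 8.75 to 6.21 in R_NSCP1, over the 4 classes of span. The median scaled pileup had another order: it was 1.496 under 1 kb, 1.956 at 1 to 10 kb, 1.841 at 10 to 100 kb and 1.611 at 100 kb or more in rESC, and 1.543, 1.874, 1.764 and 1.654 in R_NSCP1. The background window of 10000 bp was longer than the observed span of these scaffolds, and its part in the fold enrichments and in the calls was not tested.

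Sharing was lowest on the scaffolds of the longest observed span, and the highest shares were at 1 to 10 kb. On the 1293 scaffolds with a span under 1 kb, 79.3% (76.5% to 81.9%) of rESC and 63.4% (60.5% to 66.2%) of R_NSCP1 peaks were shared. At 1 to 10 kb the shares were 83.2% (80.0% to 86.2%) and 70.9% (67.4% to 74.2%), and at 10 to 100 kb they were 74.9% (71.0% to 78.6%) and 55.9% (52.2% to 59.7%). On the 123 scaffolds of at least 100 kb the shares were 70.4% (66.9% to 73.6%) and 47.6% (44.6% to 50.6%), closer to those of the chromosomes. The ratio of R_NSCP1 to rESC peaks was 1.26 (1.15 to 1.38) under 1 kb, 1.18 (1.06 to 1.32) at 1 to 10 kb, 1.34 at 10 to 100 kb and 1.48 (1.34 to 1.62) at 100 kb or more, and of these intervals the first and the last overlap. The span is itself read from the peaks, and a scaffold with more peaks tends to a longer one.

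Many peaks ran up to the first base of their scaffold. A start at base 1 was listed for 254 rESC scaffold peaks, or 9.21% (8.16% to 10.3%), and for 299 R_NSCP1 scaffold peaks, or 8.23% (7.36% to 9.18%). On chromosomes 1 to 20 no peak started there, the first start being at base 169 in rESC and base 76 in R_NSCP1, so over the whole lists the shares were 0.52% and 0.358%. The first 100 bases held the starts of 571 and 671 scaffold peaks, and the first 1000 bases those of 1186 and 1462. Only 8 chromosome peaks in each library started within the first 1000 bases. Chromosomes 1 to 20 have only 20 starts, however, whereas the scaffold peaks lay on 2284 scaffolds, each with its own start. These counts and shares are therefore not compared per start.

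**Figure D5:**
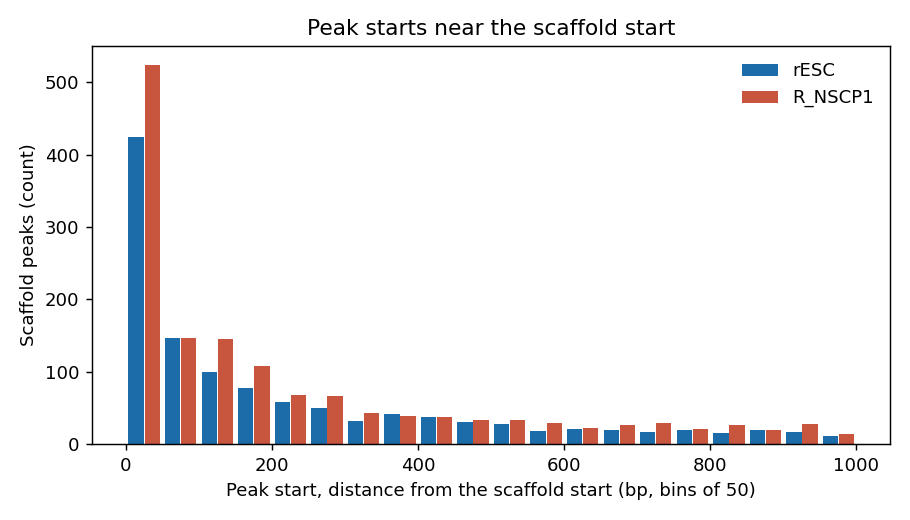
Number of scaffold peaks (vertical axis, count) by the distance of the peak start from the scaffold start (horizontal axis, bp, bins of 50) up to 1000 bp, in rESC (blue) and R_NSCP1 (red). The first bin, which includes the 254 and 299 peaks that start at base 1, is the tallest, and the counts decline over the following bins.

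Peaks at base 1 were strong for scaffold peaks. Their median scaled pileup was 2.30 in rESC (quartiles 1.496 and 4.229) and 2.32 in R_NSCP1 (1.54 and 4.19), against 1.73 and 1.76 for scaffold peaks that started after base 1000. They were shared more often: 86.2% (81.4% to 90.2%) in rESC and 76.6% (71.4% to 81.3%) in R_NSCP1, against 73.7% (71.5% to 75.9%) and 53.5% (51.4% to 55.6%) after base 1000. The median length was 348 bp and 333 bp, although such a peak is cut off at the scaffold end. Of these peaks, 226 of 254 (89.0%) and 268 of 299 (89.6%) were the sole peak of their scaffold. This was not particular to base 1: of peaks starting at bases 2 to 100, 95.3% and 92.5% were. Sharing at bases 2 to 100 was 80.8% (75.98% to 84.95%) in rESC and 67.5% (62.45% to 72.21%) in R_NSCP1. Both intervals overlapped those of base 1. The median scaled pileup there was lower, 1.496 and 1.543. A base 1 peak was present in both libraries on 183 scaffolds, in rESC only on 71 and in R_NSCP1 only on 116. In 36 of the 71 and 46 of the 116, a peak of the other library overlapped it with a later start.

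The highest pileup at base 1 was on chrUn_JH292014, where peaks from 1 to 512 had 206 fragments in rESC and 241 in R_NSCP1. On chrUn_JH313956 peaks from 1 to 440 had 155 and 188 fragments, and on chrUn_JH305640 peaks from 1 to 268 had 143 and 173. Both ends of these 3 peaks were the same in the 2 libraries. On chrUn_JH320035 the ends were at 598 in rESC and 595 in R_NSCP1, with 151 and 176 fragments. chrUn_JH297308 had the second-highest value in rESC, 169 fragments from 1 to 706, and chrUn_JH295200 the fifth in R_NSCP1, 170 fragments from 1 to 273.

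Peak ends coincided between the libraries on scaffolds in the same manner. The last base was identical in 238 of the 2055 scaffold pairs, or 11.6%, against 301 of 28899 chromosome pairs, or 1.04%. The first base was identical in 180 pairs at base 1 and in 17 other scaffold pairs (0.907%), which is near the 1.08% of the chromosomes. In 227 of the 238, the shared last base was also the end of the last peak of the scaffold. On the 979 scaffolds with exactly 1 peak in each library, this holds for any such pair by definition. The same share over all 2055 pairs was not computed. In 46 pairs both peaks started at base 1 and ended alike, with lengths from 253 to 908 bp and a median of 325.5 bp. Scaffold lengths were not used here, so whether these ends are scaffold ends was not tested.

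Few scaffold peaks overlapped a listed long noncoding RNA (lncRNA) by at least 1 bp between its start and end. There were 8 in rESC (0.290%) and 20 in R_NSCP1 (0.551%), against 0.732% and 0.691% of the peaks of chromosomes 1 to 20. The deposited lncRNA table placed 59 of its 1404 transcripts on 42 scaffolds, of which 31 scaffolds, with 43 transcripts, also carried a peak. An R_NSCP1 peak overlapped 19 of the 59 transcripts, and an rESC peak overlapped 9 of the same 19. Some transcripts overlap, and with overlapping transcripts of a strand merged these were 15 and 7 of 48 loci, or 31.2% (18.7% to 46.2%) and 14.6% (6.07% to 27.8%). On chromosomes 1 to 20 the shares of loci were 25.8% and 17.7%, inside these intervals. The median extent of a transcript was 1592 bp on scaffolds and 4248 bp on the chromosomes. Of the 5 scaffold lncRNAs with the highest FPKM (fragments scaled to the length of the transcript and the size of the library) in either library, 1 was overlapped by a peak. This lncRNA lay on the minus strand of chrUn_JH290312 from 365634 to 366225, and its FPKM was 187.9 in rESC against 167.0 in R_NSCP1. Only an R_NSCP1 peak overlapped it. The highest FPKM, 1203 in rESC and 514.9 in R_NSCP1, was listed on chrUn_JH294147 from 55 to 304, and neither library had a peak on that scaffold. The others were on chrUn_JH322775 (192.2 and 25.4) and chrUn_JH298351 (59.1 and 8.68), which had no peaks, and on chrUn_JH290913 (57.5 and 0.698), which had 1 peak in each library outside the transcript. With 1 library for each value, these differences have no replicate check.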

How the data were processed

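Per the labels' protocols, sheared genomic DNA was turned into libraries from which a commercial kit pulled down methylated fragments. Tools named in the submitters' processing notes are TopHat2 2.0.11, BWA 0.7.7 and MACS2. The authors ran MACS 2.1.0.20150731 on each library alone, per the file headers, with no control, a regional background over 10000 bp, at most 1 tag per position, a genome size of 3e+09 and a q limit of 0.01. The genome build was not given in the sources used here, and no sequence was read. Coordinates are 1-based as in the files.

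The pileup signal deposited by the authors counts fragments and is not scaled between libraries. It was divided by the tags after filtering in each header. The fold enrichment ratio deposited by the authors sets pileup plus 1 over local background plus 1, from which the background was computed. The −log10 p and −log10 q values deposited by the authors refer to that background and served to describe and filter peaks within a list. The lncRNA FPKM values are as deposited by the authors, per the file headers, and the depth behind them is unknown. The p-value column deposited by the authors was not used.

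Groups were taken from sample titles. Peaks overlapping by at least 1 bp were counted as shared. Shares and ratios of counts carry 95% exact (Clopper-Pearson) intervals. Scaffolds and peaks are named by rank: the 5 scaffolds with most peaks, also among those of 1 library only, and the 5 peaks with the highest pileup, length, fold enrichment if unshared, and pileup at base 1; others are said to be chosen after their values were seen or appear as partners. The members and rules were chosen with earlier results of these data known. The overlap and background steps were tested on simulated data. Work was done in Python 3.11.15 with pandas 2.3.3, numpy 2.4.6, matplotlib 3.10.9 and scipy 1.17.1.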

Additional observations from a re-analysis of the deposited data

How the results depend on the processing

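Each cell type had 1 MeDIP library, so no result has a replicate spread, and peak calling without the input limits every count. No paired analysis was possible because each group had 1 library. Of 65 values under other settings 29 stayed near the reported value (counts within 1.5 times, ratios and shares within the interval) and 36 moved. Some of the 29 could not have moved. Total tags equalled the tags after filtering in both libraries, and no rESC peak was shorter than 249 bp. No ratio crossed 1, but with equal numbers of strongest peaks the shared share was higher in R_NSCP1 than in rESC, against the order of the whole lists. That setting cut the R_NSCP1 list only, because the rESC list was the shorter. Raising the −log10 q to at least 10 left 1227 rESC and 1742 R_NSCP1 scaffold peaks (ratio 1.42), and at least 20 left 518 and 719 (1.39). Keeping peaks of at least 249 bp, chosen after the data were seen and able to remove R_NSCP1 peaks only, gave a ratio of 1.03. The shared share of rESC and R_NSCP1 scaffold peaks was 72.7% and 55.2% with an overlap of 50% of both peaks, 64.9% and 71.4% with equal numbers of strongest peaks, and 90.3% and 65.8% at a −log10 q of at least 20 in both lists. For rESC it was 79.0% at a −log10 q of at least 5 and 85.0% at 10. With 2 settings chosen after the data were seen, it was 68.7% and 67.0% for peaks of at least 249 bp, and 85.0% and 70.5% on scaffolds with peaks in both libraries. On chromosomes 1 to 20 it was lower than on scaffolds under each setting. Keeping only scaffolds with peaks in both libraries could only raise the scaffold shares, however, and left the chromosomes unchanged. The ratio of median lengths in rESC, 1.098, was 1.069 at a −log10 q of at least 10. Peak starts within 100 bases numbered 571 and 671, and within 1000 bases 1186 and 1462. Very high pileups numbered 114 and 179 above the 99th percentile, 0 and 0 above the highest chromosome peak, and 7 and 16 without chrUn_JH290355. Scaffolds with peaks in 1 library only numbered 8 and 31 with at least 2 peaks, and 0 and 0 with at least 5. Of the 2055 scaffold pairs, those at least 2-fold higher numbered 60 in R_NSCP1 and 8 in rESC, against 2.39% and 0.393% of all pairs. By construction stricter thresholds keep fewer peaks; otherwise the cause was not tested.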
